A study of Mus musculus with 2 samples.

Results

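Kupffer cells that carried Fabp7 RNA made up 1186 of the 1839 Kupffer cells of early liver lesions, or 64.5% (95% interval 62.3 to 66.7). They were chosen by measured values. A cell, meaning a cell barcode, was kept with at least 1000 unique molecular identifiers (UMIs, each counting 1 captured RNA molecule), at least 300 genes, at most 25% mitochondrial UMIs and less than 0.5% of its UMIs from Alb, the albumin gene of hepatocytes. It was called a Kupffer cell when Clec4f, Vsig4, Cd5l and Marco together gave at least 3 UMIs and outnumbered Gpnmb, Mmp12, Itgax and H2-M2, genes of another liver macrophage state. A Kupffer cell entered the group with at least 1 Fabp7 UMI and fewer than 4 UMIs of the hepatocyte genes Rgn, Pck1, Hpd, Agxt, Oat and Mat1a. The comparison was all 653 other Kupffer cells, of which 474 had neither Fabp7 nor that much hepatocyte RNA and 179 had hepatocyte RNA. Among these 179, 147 also carried Fabp7, so absence of the gene does not define the comparison. The early library held 3221 barcodes, of which 2399 passed the limits, and the series held 3477.

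Kupffer cells are the resident macrophages of the liver sinusoids. They take up particles, lipoproteins, iron and dying cells from portal blood through scavenger and complement receptors. Fabp7 encodes a cytoplasmic fatty acid binding protein, best known from brain glia, which carries long-chain fatty acids within the cell and belongs to a family whose members are spread over different tissues. Fabp1 is its hepatocyte relative, and Fabp4 and Fabp5 are relatives found in adipocytes, endothelium and many macrophages.

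The study profiled single cells, by droplet 3' RNA sequencing, from livers of untreated mice with conditional deletion of the Rb family genes (Rb1, Rbl1 and Rbl2), which restrain entry into the cell cycle. Cells of early lesions were pooled from 3 mice and cannot be traced to the mouse they came from. Cells of macroscopic lesions formed the other library. Both libraries were sorted for YFP, a marker of Cre recombination, and both therefore share the same sort. Age, sex and the promoter driving Cre are not stated in the labels, and no YFP transcript was among the counted features. With 1 library per stage there is no replicate, so no p-value was computed, and each interval below covers counting error only, not the spread between mice.

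The group was sequenced more deeply than its comparison. The 1186 Fabp7 Kupffer cells had a median of 3026.5 UMIs and 1402.5 genes, against 1986 UMIs and 1054 genes in the 653 other Kupffer cells. Mitochondrial UMIs had medians of 8.36% in Fabp7 Kupffer cells and 9.30% in the other Kupffer cells. The sums held 4648244 UMIs for Fabp7 Kupffer cells and 2004572 UMIs for the other Kupffer cells. For comparisons every cell was therefore thinned without replacement to 1000 UMIs, and levels are CPM, the UMIs of a gene scaled to a common total, of the thinned sums unless stated. Rb1 gave 28.4 CPM (23.8 to 33.7) in Fabp7 Kupffer cells and 30.9 CPM (23.7 to 39.7) in the other Kupffer cells before thinning, but 3' tags outside a deleted stretch check nothing about the deletion.

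Fabp7 (ENSMUSG00000019874, chromosome 10, 57784881 to 57788450, plus strand, GRCm38) was a low-count gene in most of the cells it selected. Of the 1186 Fabp7 Kupffer cells, 378 had 1 UMI, 237 had 2, 156 had 3 and 106 had 4. At the upper end 91 cells had 10 or more, and the highest had 47. The median was 2 UMIs per cell. Just inside the threshold stood the 404 Kupffer cells with exactly 1 Fabp7 UMI, 378 of them in the group, with a median of 2067 UMIs in all. Just outside stood 506 Kupffer cells with 0 Fabp7 UMIs and a median of 1758 UMIs. As deposited, Fabp7 reached 971 CPM (943 to 999) in the group and 398 CPM (370 to 426) in the other Kupffer cells, where all Fabp7 UMIs came from the 147 cells with hepatocyte RNA and Fabp7. These values follow from the choice of cells.

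Entry into the group followed depth. Among Kupffer cells of 1000 to 2000 UMIs 49.6% were in the Fabp7 group, and the shares were 68.5% at 2000 to 4000, 78.6% at 4000 to 8000 and 74.8% above 8000 UMIs. Any Fabp7 UMI was present in 52.2%, 76.4%, 92.9% and 90.8% of the Kupffer cells of these depths. Once each cell was thinned to 1000 UMIs, the shares were 43.0%, 48.3%, 52.3% and 51.1%, with overlapping intervals in the upper 3 classes. Of the 1186 selected cells 783 (66.0%, 63.2 to 68.7) kept a Fabp7 UMI after thinning, and 403 did not. At equal depth 47.5% of all Kupffer cells showed the gene and 52.5% had no UMI of it.

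**Figure D1:**
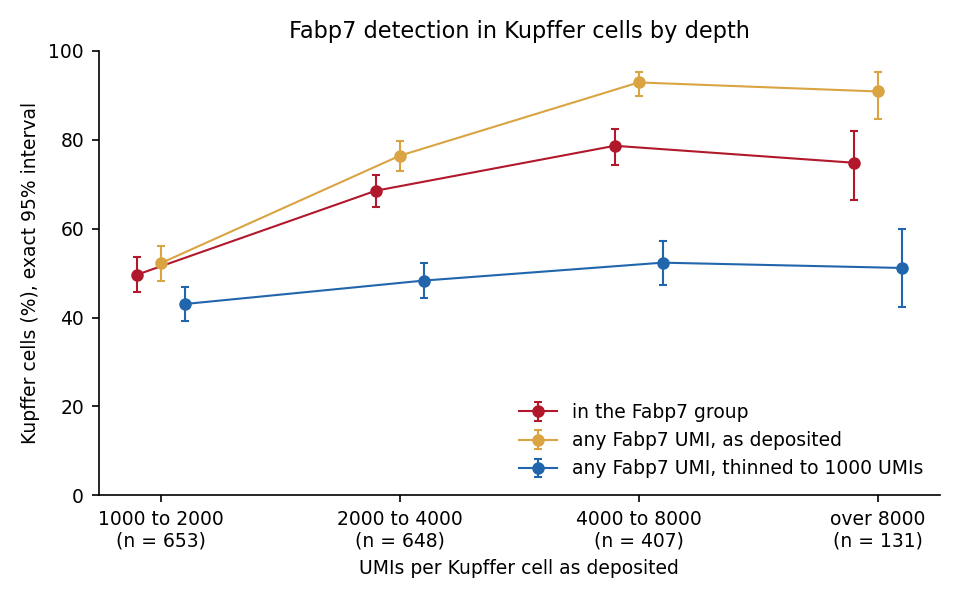
Share of Kupffer cells in the Fabp7 group, with any Fabp7 UMI as deposited, and with any Fabp7 UMI after thinning to 1000 UMIs, by UMIs per cell (points with exact 95% intervals). The deposited shares climb to 92.9% between 4000 and 8000 UMIs, while the thinned shares stay between 43.0% and 52.3%.

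The Fabp7 level nevertheless differed between Kupffer cells. In 1186 Kupffer cells with at least 2000 UMIs (a number that happens to equal the size of the group but is a different set), 1000 UMIs were drawn and the Fabp7 level was then read in the UMIs not drawn. Cells with 0 drawn Fabp7 UMIs had 501 CPM (472 to 531) in their remaining UMIs, and 67.3% of these 593 cells had at least 1 Fabp7 UMI there. The level was 924 CPM (873 to 977) in cells with 1 drawn UMI, 1249.8 CPM (1161 to 1343) with 2 and 1855 CPM (1709 to 2009) with 3 or more. The intervals of the 4 classes did not overlap, and no class was free of Fabp7. The same reading for the mannose receptor Mrc1, which showed almost no variance beyond counting, ran over a narrower span, between 519 CPM and 979.6 CPM. Cd207 (langerin, a lectin) ran over a wider span than Fabp7, with 230.5 CPM in cells with 0 drawn Cd207 UMIs and 2102 CPM in cells with 3 or more. The scavenger receptor Marco also ran over a wider span, with 469.9 CPM in cells with 0 drawn Marco UMIs and 5668 CPM in cells with 3 or more.

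**Figure D2:**
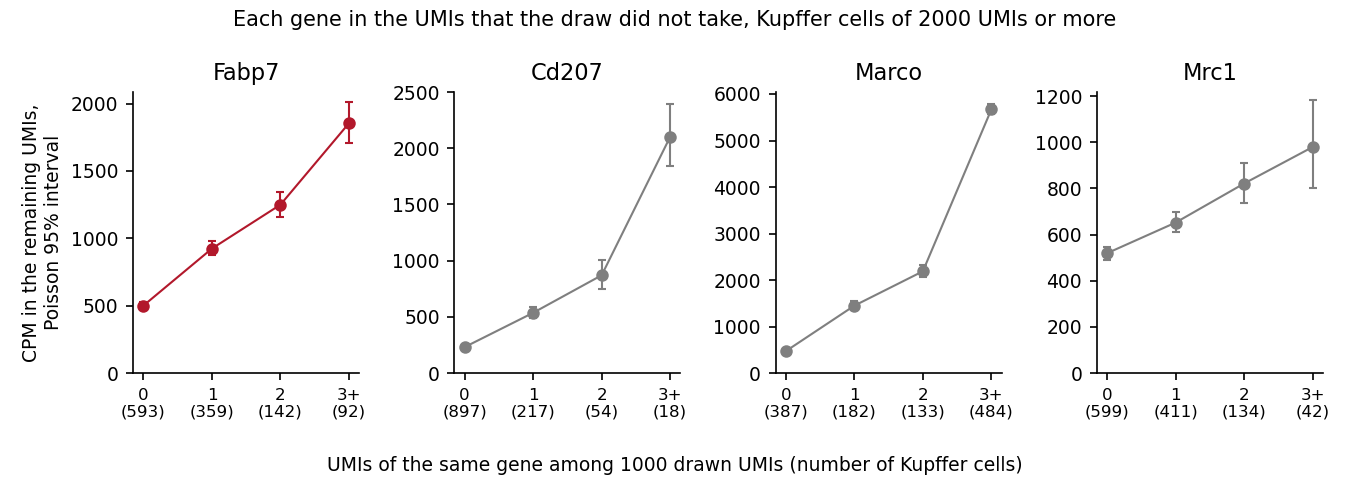
Level of Fabp7, Cd207, Marco and Mrc1 in the UMIs left after a draw of 1000, by how many UMIs of the same gene were drawn, in Kupffer cells with at least 2000 UMIs (Poisson 95% intervals, number of cells in brackets, separate scales). Fabp7 climbs in steps between 501 CPM and 1855 CPM and does not reach 0 in the first class.

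The spread between cells was also read as a variance. The variance of thinned Fabp7 UMIs over all 1839 Kupffer cells was 1.48 times their mean, where counting alone gives 1. Cd207 stood at 1.45 and Clec4f, a Kupffer lectin receptor, at 1.69. Their means were 0.294 UMIs for Cd207 and 3.88 UMIs for Clec4f, against 0.771 UMIs for Fabp7. For the same relative spread this ratio is larger at a higher mean. It therefore does not rank genes of unlike level by how much they vary. Marco stood at 4.93, the haem-degrading enzyme Hmox1 at 4.05 and the antigen-presenting chain H2-Aa at 3.64. The group is thus a range of Fabp7 levels that begins at 1 UMI, and 536 of the 874 Kupffer cells with thinned Fabp7 had exactly 1.

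Fabp7 was far more frequent in Kupffer cells than in the other classes of the early library that could be named from markers. It was present in 1333 of 1839 Kupffer cells (72.5%, 70.4 to 74.5) at 798 CPM (777 to 820), both as deposited. Gpnmb macrophages had a Fabp7 UMI in 14 of 215 cells (6.51%, 3.61 to 10.7) at 23.1 CPM. Cholangiocytes had it in 3 of 102 cells (2.94%) and 2.08 CPM, and monocytes in 1 of 37 cells (2.70%). T and NK cells, which served as a class that should lack the gene, had it in 3 of 75 cells (4%, 0.833 to 11.2) at 13.9 CPM. Median depths were 2627 UMIs in Kupffer cells and 2621 UMIs in T and NK cells. B cells gave 0 of 19 and endothelial cells 0 of 17, which by the limit of 3 counts allows shares of cells with a Fabp7 UMI of up to 15.8% and 17.6%, and says nothing of cells that express it. After thinning the share was 47.5% in Kupffer cells and 1.19% in all named classes outside Kupffer cells, where 23 of 504 cells (4.56%) had a Fabp7 UMI as deposited. A further 56 cells were neither Kupffer cells nor of a named class, and 21 of them (37.5%) held Fabp7. They held 90 of the 141 Fabp7 UMIs outside Kupffer cells. A named class needed fewer than 3 UMIs of Clec4f, Vsig4, Cd5l and Marco together, so cells with more Kupffer RNA could not enter it. That condition bears on the low Fabp7 shares of the named classes. The shares of Gpnmb macrophages, monocytes and cholangiocytes lay within the interval of the T and NK share. The 215 Gpnmb macrophages had a median of 7793 UMIs and held 40 Fabp7 UMIs in 14 cells. Monocytes held 3 Fabp7 UMIs in 1 cell, and T and NK cells 3 in 3 cells. Whether these UMIs are background was not tested.

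**Figure D3:**
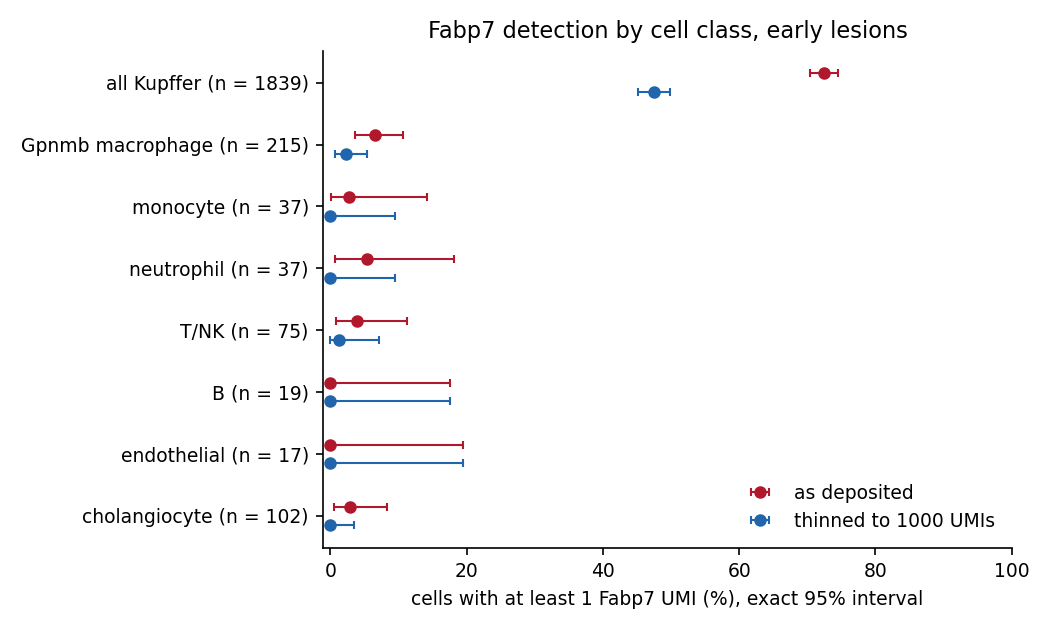
Share of cells with at least 1 Fabp7 UMI in each cell class of the early library, as deposited and after thinning to 1000 UMIs (exact 95% intervals, counting error only). Kupffer cells stand at 72.5% and 47.5%, and the other named classes are at or below 6.51%.

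Fabp5, Fabp4 and Fabp1 were highest in other cells. Fabp5 gave 106 CPM in Fabp7 Kupffer cells, 87.3 CPM in the other Kupffer cells and 5116 CPM in Gpnmb macrophages, as deposited. Fabp4 gave 41.3 CPM in Fabp7 Kupffer cells, 47.4 CPM in the other Kupffer cells and 263 CPM in Gpnmb macrophages. Fabp5 and Fabp4 in the Kupffer groups came from few cells, with Fabp5 in 8.94% of Fabp7 Kupffer cells and 6.43% of the others. Fabp1 gave 82.8 CPM in Fabp7 Kupffer cells and 237 CPM in the other Kupffer cells, against 2088 CPM in the 62 barcodes removed for high Alb and 0 UMIs in Gpnmb macrophages. Fabp6, Pmp2, Fabp9, Fabp12, Crabp1 and Crabp2 had 0 UMIs in every class set side by side here.

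Kupffer markers beyond the 4 that selected the group were also read. Timd4, a receptor for dying cells, gave 272 CPM in Fabp7 Kupffer cells and 300.2 CPM in the other Kupffer cells, with 0 UMIs in Gpnmb macrophages, so that the Fabp7 Kupffer level was at least 19.5-fold higher than in Gpnmb macrophages (floor of 3 UMIs over the sum). C6, a complement component, gave 677 CPM in Fabp7 Kupffer cells and 654 CPM in the other Kupffer cells, at least 48.5-fold above Gpnmb macrophages. The haemoglobin receptor Cd163 gave 579 CPM in Fabp7 Kupffer cells, 694 CPM in the other Kupffer cells and 0 UMIs in Gpnmb macrophages. Folr2, a folate receptor, gave 759 CPM in Fabp7 Kupffer cells, 611 CPM in the other Kupffer cells and 18.6 CPM in Gpnmb macrophages. Timd4, C6, Cd163 and Folr2 were thus detected in both Kupffer groups. Gpnmb macrophages were chosen with fewer than 3 UMIs of the 4 selecting genes together, so their low levels of Kupffer markers partly follow from that choice.

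Markers of other cell types ranged from rare to frequent in both groups. As deposited, T and NK markers (6 genes) were present in 5 of the 1186 Fabp7 Kupffer cells, with Klrb1c at 0, and in 3 of the 653 other Kupffer cells. Cholangiocyte markers (5 genes) were present in 17 Fabp7 Kupffer cells (1.43%), with Krt19 at 0, and in 9 other Kupffer cells (1.38%). Their level after thinning was 3.37 CPM in Fabp7 Kupffer cells and 10.7 CPM in the other Kupffer cells. Endothelial markers (6 genes) were present in 296 of the 1186 Fabp7 Kupffer cells and 151 other Kupffer cells (23.1%) as deposited, and gave 90.2 CPM in Fabp7 Kupffer cells and 109 CPM in the other Kupffer cells after thinning. Neutrophil markers (4 genes) were present in 21.8% of Fabp7 Kupffer cells and 19.1% of the other Kupffer cells as deposited, and gave 97.8 CPM in Fabp7 Kupffer cells and 87.3 CPM in the other Kupffer cells after thinning. Monocyte markers (7 genes) gave 34.6 CPM in Fabp7 Kupffer cells and 65.8 CPM in the other Kupffer cells after thinning. The Gpnmb macrophage genes gave 174 CPM in Fabp7 Kupffer cells and 62.8 CPM in the other Kupffer cells after thinning. Most of that difference was Mmp12, with a ratio of 4.49, against 1.14 for Gpnmb, 1.79 for Itgax and 1.24 for H2-M2. The rule limits these genes only to fewer UMIs than the selecting Kupffer genes. Those had medians of 54 UMIs in Fabp7 Kupffer cells and 37 UMIs in the other Kupffer cells, so the limit was looser in the group. At least 3 UMIs of Gpnmb, Mmp12, Itgax and H2-M2 were present in 5.73% of Fabp7 Kupffer cells and 2.45% of the other Kupffer cells, as deposited. Scrublet called 2 of 2399 cells as doublets, both in the group, and a caller that marks so few has not worked on this library, so doublets were not removed.

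Of the genes proposed to mark the group with Fabp7, 2 showed no difference beyond counting error when all cells were thinned to 1000 UMIs and summed. Marco, a scavenger receptor that the rule also uses, gave 3213 CPM (3112 to 3317) in Fabp7 Kupffer cells and 3126 CPM (2991 to 3264) in the other Kupffer cells, a ratio of 1.03. Ccl24, an eosinophil-attracting chemokine (chromosome 5, 135569937 to 135573049, minus strand), gave 163 CPM in Fabp7 Kupffer cells and 156 CPM in the other Kupffer cells, a ratio of 1.04 (0.815 to 1.34). Ifi27l2a, an interferon-stimulated gene (chromosome 12, 103442167 to 103443680, minus strand), gave 501 CPM in Fabp7 Kupffer cells and 374 CPM in the other Kupffer cells, a ratio of 1.34 (1.15 to 1.56). Gfra2, a co-receptor for the GDNF family ligand neurturin (chromosome 14, 70890120 to 70979838, plus strand), gave 133 CPM in Fabp7 Kupffer cells and 98.0 CPM in the other Kupffer cells, a ratio of 1.36 (1.01 to 1.85). Gfra2 had a UMI in 12.3% of thinned Fabp7 Kupffer cells and 9.19% of the others.

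The choice of cells on deposited counts lets depth into the group, so the same genes were also read with Fabp7 taken from the thinned UMIs. This set 783 Kupffer cells with thinned Fabp7 against 877 without, both under the hepatocyte limit, with median depths of 2729 and 2363 UMIs before thinning. Gfra2 gave 143 CPM in cells with thinned Fabp7 and 104 CPM in cells without, a ratio of 1.38 (1.04 to 1.84). Ifi27l2a gave 501 CPM in cells with thinned Fabp7 and 441.3 CPM in cells without, with an interval of the ratio that included 1 (1.13, 0.984 to 1.31). Marco gave 3089 CPM in cells with thinned Fabp7 and 3462 CPM in cells without, a ratio of 0.892 (0.846 to 0.942). That interval covers counting error only, and Marco varied beyond it, with a variance 4.93 times the mean over all Kupffer cells. For the group as chosen the Marco ratio was 0.957 (0.881 to 1.04) at 1000 to 2000 UMIs. It was 1.13 (1.03 to 1.25) at 2000 to 4000 UMIs and 1.498 (1.27 to 1.77) at 4000 to 8000 UMIs. Above 8000 UMIs the interval was 0.808 to 1.25. A lower Marco level with Fabp7 was therefore not established. Ccl24 gave 161 CPM in cells with thinned Fabp7 and 164 CPM in cells without. Of the 4 marker genes, Gfra2 alone had an interval above 1 under both ways of choosing the cells, with lower bounds close to 1 and ratios under 1.5-fold. Both readings used the same draw and many of the same cells, and for the group as chosen the Gfra2 ratio was 1.32 in a second draw and 1.27 by mean CPM per cell. Within cells of 1000 to 2000 UMIs the Gfra2 ratio was 1.02 (0.617 to 1.67). It was 1.64 (0.977 to 2.90) at 2000 to 4000 UMIs and 1.30 (0.625 to 3.03) at 4000 to 8000 UMIs. Above 8000 UMIs it was 4.04 (0.598 to 172.7), from 12 UMIs and 1 UMI. The interval included 1 at every depth.

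Levels along the Fabp7 count did not change in 1 direction for Marco, Ifi27l2a, Gfra2 or Ccl24. Marco gave 3462, 3154, 3238 and 2562 CPM in Kupffer cells with 0, 1, 2 and 3 or more thinned Fabp7 UMIs. Gfra2 gave 104, 144, 184 and 71.4 CPM in the same classes, the last from 112 cells. The chemokine Cxcl14 gave 128, 210, 189 and 250.0 CPM, and all 3 classes with Fabp7 lay above the class without. Clec4f gave 3984, 3712, 3654 and 4134 CPM, with no order along the count. Some other genes did run in order. Ifitm3 rose over 951, 1072, 1184 and 1411 CPM, and Folr2 over 661, 728, 768 and 893 CPM. The complement chain C1qa fell over 4876, 4584, 4562 and 4384 CPM. These examples were picked for their order among many genes.

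**Figure D4:**
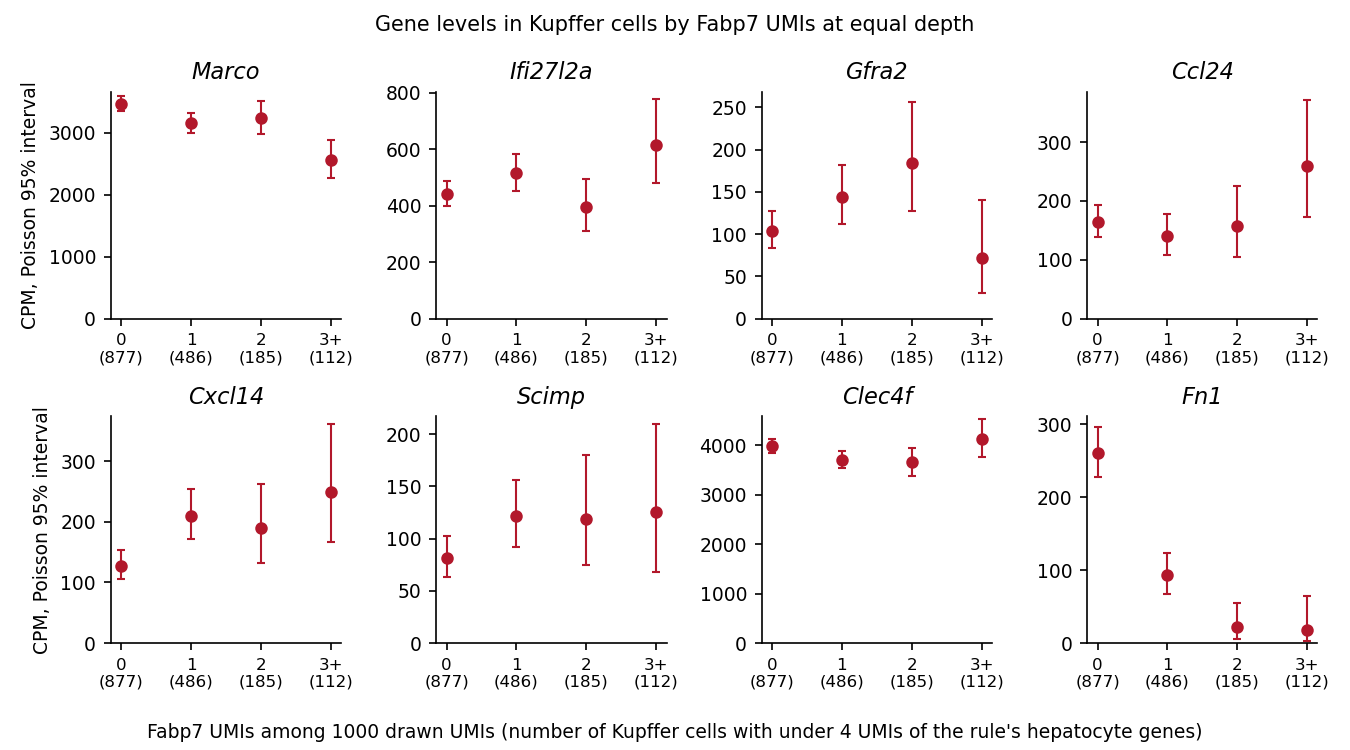
Levels of 8 genes in Kupffer cells under the hepatocyte limit, by Fabp7 UMIs after thinning to 1000 UMIs (Poisson 95% intervals, number of cells in brackets, separate scales from 0). Cxcl14 is lowest at 128 CPM and Fn1 highest at 260 CPM in cells without thinned Fabp7, while Clec4f shows no order.

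Across all genes few lay far from the other Kupffer cells. Measured genes had at least 50 CPM in 1 group and at least 20 thinned UMIs in both together, and the 16 genes of the rule were left out. In Fabp7 Kupffer cells 72 of 3247 measured genes (2.22%) lay 1.5-fold or more above the other Kupffer cells and 143 (4.4%) lay 1.5-fold or more below. These counts say only that the fold was passed. A second random draw gave 75 and 146 genes, and 24 of the 72 and 69 of the 143 passed in both draws. The mean CPM per cell over all UMIs, which is what thinning gives on average, passed the fold for 15 of the 72 higher genes and 60 of the 143 lower genes. Without thinning 4 of the 72 and 50 of the 143 passed. Genes past 1.5-fold in all 4 readings numbered 2 higher, Icam1 and Scimp, and 45 lower. All 4 readings count the same cells. With Fabp7 read from the thinned UMIs the ratio was 1.33 (0.842 to 2.10) for Icam1 and 1.499 (1.09 to 2.07) for Scimp. Neither then passed 1.5-fold. Icam1 is an adhesion receptor for leukocyte integrins.

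The 12 genes with the highest lower bounds in the first draw were Ranbp1, Capg, Cela1, Ifitm3, Lgals3, Hspa1b, Setdb1, Bcl2a1b, Cxcl14, Scimp, Mrpl54 and Polr2j. Having been picked from 1 draw, they carry its chance. All 12 were higher in Fabp7 Kupffer cells by mean CPM per cell, 5 of them by 1.5-fold or more. Scimp, an adaptor of antigen-presenting cells, gave 115 CPM in Fabp7 Kupffer cells and 64.3 CPM in the other Kupffer cells. Its ratio was 1.78 (1.25 to 2.58) in the first draw, 1.55 in the second, 1.59 by mean CPM per cell and 1.54 without thinning. Capg, which caps actin filaments, gave 115 CPM in Fabp7 Kupffer cells and 55.1 CPM in the other Kupffer cells, a ratio of 2.08 (1.43 to 3.09), which was 2.03 by mean CPM per cell and 1.36 without thinning. Ranbp1, a cofactor of the Ran nuclear transport cycle, had the highest first ratio at 2.49 (1.71 to 3.73), yet 1.48 in the second draw and 1.23 without thinning.

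Of the 12 genes all but Hspa1b stayed above 1 in all 4 readings, among them the chemokine Cxcl14 and the abundant genes Ifitm3 and Lgals3. Cxcl14 (chromosome 13, 56288643 to 56296551, minus strand) gave 195 CPM in Fabp7 Kupffer cells and 119 CPM in the other Kupffer cells, a ratio of 1.63 (1.26 to 2.14), with 1.56 in the second draw, 1.43 by mean CPM per cell and 1.24 without thinning. With Fabp7 read from the thinned UMIs the Cxcl14 ratio was 1.65 (1.29 to 2.12), and 18.1% of cells with thinned Fabp7 held a Cxcl14 UMI against 11.3% of cells without. By depth the Cxcl14 ratio was 1.73, 1.498, 1.45 and 0.636 in cells of 1000 to 2000, 2000 to 4000, 4000 to 8000 and over 8000 UMIs, the last with an interval of 0.268 to 1.62. The antiviral membrane gene Ifitm3 gave 1165 CPM in Fabp7 Kupffer cells and 825 CPM in the other Kupffer cells, a ratio of 1.41 (1.28 to 1.56), which was 1.21 (1.10 to 1.33) with Fabp7 read from the thinned UMIs and 1.10 without thinning. Galectin 3 (Lgals3) gave 574 CPM in Fabp7 Kupffer cells and 392 CPM in the other Kupffer cells, a ratio of 1.46 (1.27 to 1.70), which was 1.22 (1.06 to 1.40) with Fabp7 read from the thinned UMIs and 1.24 without thinning. At the 4 depths given for Cxcl14, the Ifitm3 ratio was 1.51, 1.19, 1.19 and 0.965. The Lgals3 ratio was 1.40, 1.27, 1.04 and 1.64 at the same depths.

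The rest of the 12 rested on few UMIs or on genes with near-identical copies. The heat-shock gene Hspa1b, which has the near-identical copy Hspa1a, had a ratio of 2.15 in the first draw but 0.991 without thinning and 0.753 with Fabp7 read from the thinned UMIs. Bcl2a1b, a survival gene of the Bcl2 family with near-identical copies, had ratios between 1.13 and 1.75 over the 4 readings. Cela1 (an elastase), Setdb1 (a histone H3 lysine methyltransferase), Mrpl54 (a mitochondrial ribosomal protein) and Polr2j (an RNA polymerase II subunit) had first ratios of 2.03, 2.36, 1.95 and 1.99. Their ratios in the second draw were 1.21, 1.68, 1.22 and 1.19. With Fabp7 read from the thinned UMIs 11 of the 12 genes stayed above 1, 8 had intervals above 1, and 4 (Ranbp1, Cxcl14, Mrpl54 and Polr2j) passed 1.5-fold. In that comparison 70 of 3197 measured genes (2.19%) were past 1.5-fold higher and 86 (2.69%) past 1.5-fold lower.

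**Figure D5:**
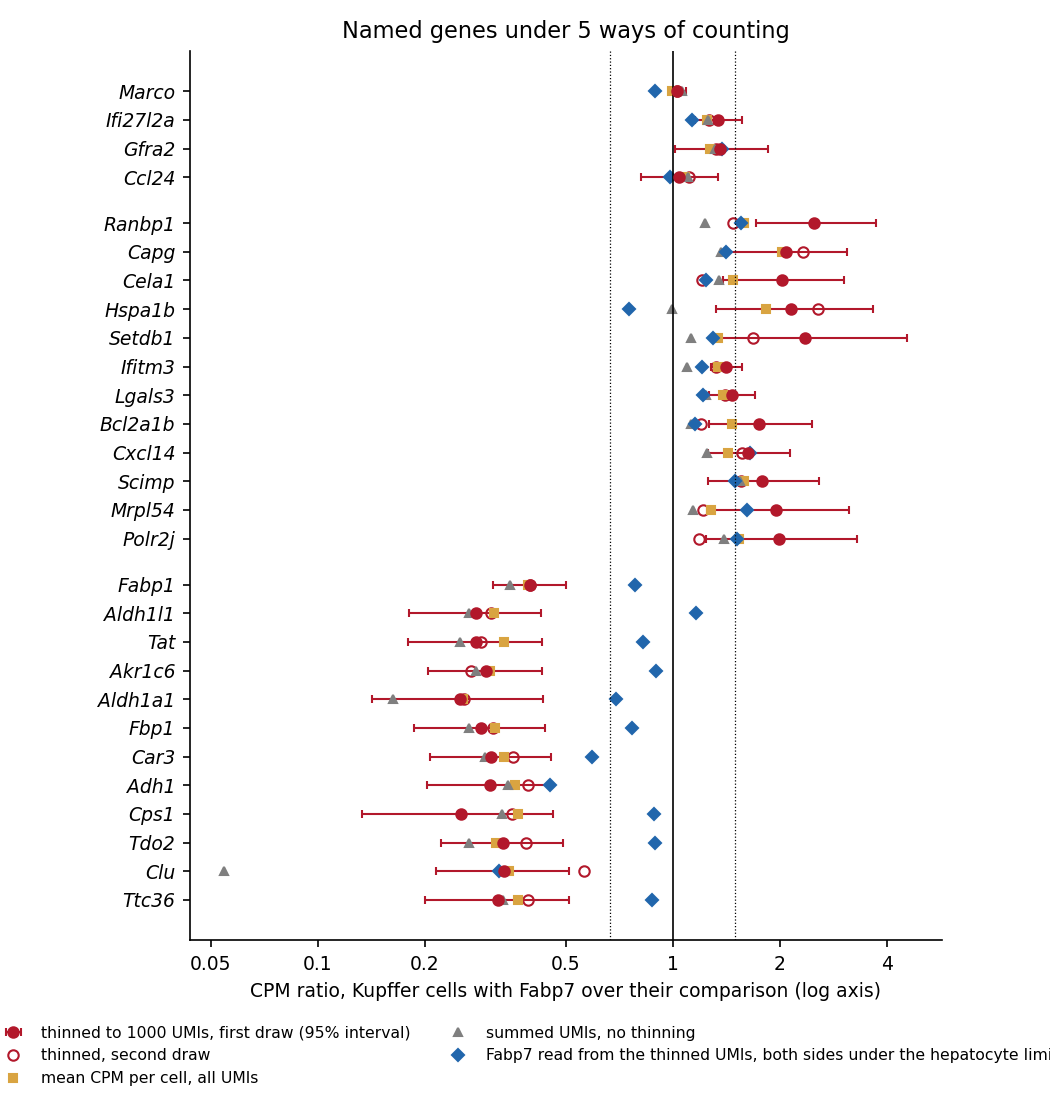
CPM ratios of the 4 marker genes, the 12 genes with the highest lower bounds and the 12 with the lowest upper bounds, under 5 ways of counting, on a log axis with dotted lines at 1.5-fold either way. The ratios of the upper 12 spread between 0.753 and 2.57, and most of the lower 12 move toward 1 where Fabp7 is read from the thinned UMIs and both sides are under the hepatocyte limit.

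Enzymes of hepatocytes led the genes that were lower in Fabp7 Kupffer cells, although 7 of the 143 belong to the hepatocyte gene list. The 12 with the lowest upper bounds were Aldh1l1, Tat, Akr1c6, Aldh1a1, Fbp1, Car3, Adh1, Cps1, Tdo2, Fabp1, Clu and Ttc36, and all 12 were past 1.5-fold in each of the 4 readings. For Clu most UMIs of the comparison came from 1 cell. Cps1, the first enzyme of the urea cycle, gave 14.3 CPM in Fabp7 Kupffer cells and 56.7 CPM in the other Kupffer cells, a ratio of 0.253 (0.134 to 0.461). Tat, which breaks down tyrosine, gave 28.7 CPM in Fabp7 Kupffer cells and 103 CPM in the other Kupffer cells, a ratio of 0.279. Fabp1 gave 107 CPM in Fabp7 Kupffer cells and 271 CPM in the other Kupffer cells, a ratio of 0.395. The rule keeps cells with more hepatocyte RNA out of the group and leaves them in the comparison, so these genes were read in further ways. The 474 Kupffer cells with neither Fabp7 nor that much hepatocyte RNA had a median of 1734.5 UMIs, against 3026.5 UMIs in the group. The limit is a fixed count of deposited UMIs, so it holds the deeper group to a lower hepatocyte level. Against these 474 cells all 12 stayed past 1.5-fold lower, and 11 had intervals below 1, values on which the limit still bears. There the ratio was 0.400 (0.192 to 0.833) for Cps1, 0.425 (0.254 to 0.711) for Tat and 0.583 (0.441 to 0.775) for Fabp1. Over all genes of that comparison 133 of 3280 (4.05%) were past 1.5-fold higher and 199 (6.07%) past 1.5-fold lower, and 108 of the 143 lower genes passed there too. With Fabp7 also read from the thinned UMIs, and both sides under the limit, the ratios were 0.884 for Cps1, 0.825 for Tat and 0.782 for Fabp1, each with an interval that included 1. In this last reading 3 of the 12 and 38 of the 143 passed 1.5-fold. There Adh1 (alcohol dehydrogenase), at 29.4 CPM in cells with thinned Fabp7 and 65.0 CPM in cells without, and Car3 (carbonic anhydrase) kept ratios of 0.452 and 0.592.

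Lists of genes by function showed the same small differences. Median log2 ratios are set against -0.03 over all measured genes. Of 22 measured Kupffer identity genes 1 was past 1.5-fold higher, Xlr at 1.503, and 0 were lower, with a median of 0.01. Among 19 scavenger and phagocytic receptors and 30 lysosomal genes 0 passed in either direction, with medians of -0.04 each. Psap, a lysosomal saposin precursor, gave 4669 CPM in Fabp7 Kupffer cells and 5515 CPM in the other Kupffer cells, a ratio of 0.847. Among 18 genes of lipid uptake, storage and efflux 0 passed, with a median of 0.03, where 2.22% of all measured genes passed upward and 4.4% downward. Of 14 genes of fatty acid oxidation 1 was past 1.5-fold higher and 3 were lower, with a median of -0.09. With Fabp7 read from the thinned UMIs 0 of the 14 passed in either direction and the median was 0.10, and the 1 higher gene, Hadha, a subunit of the mitochondrial trifunctional protein, had ratios of 1.61 in the first draw and 0.987 in the second. Apoe, a lipoprotein component made by Kupffer cells, gave 11653 CPM in Fabp7 Kupffer cells and 11159 CPM in the other Kupffer cells. Of 9 measured hepatocyte genes 7 were past 1.5-fold lower, against 4.4% of all measured genes, with a median of -0.83. Against Kupffer cells without Fabp7 or hepatocyte RNA 4 of the 9 were past 1.5-fold lower and the median was -0.56. The fixed limit on hepatocyte UMIs bears on that reading too. The median was -0.70 with Fabp7 read from the thinned UMIs alone, and -0.07 with both changes together.

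Interferon and mitochondrial genes differed by small amounts, and are set against 45.9% of all measured genes that lay above 1. Of 20 measured interferon-stimulated genes 0 were past 1.5-fold in either direction, 12 lay above 1 and the median was 0.11, against 0.04 with Fabp7 read from the thinned UMIs. Ifitm2, an antiviral membrane gene, gave 580.1 CPM in Fabp7 Kupffer cells and 447 CPM in the other Kupffer cells, and Ly6e, a surface protein induced by interferon, 1798 CPM in Fabp7 Kupffer cells and 1729 CPM in the other Kupffer cells. Of 31 nuclear genes of oxidative phosphorylation 26 lay above 1, with a median of 0.19, against 0.11 with Fabp7 read from the thinned UMIs. The complex IV subunit Cox5a gave 1403 CPM in Fabp7 Kupffer cells and 1149 CPM in the other Kupffer cells, a ratio of 1.22. Ndufs1 was the 1 gene of that list past 1.5-fold, at 1.80, and it lay at 0.876 without thinning. Of 7 measured chemokines Cxcl14 alone was past 1.5-fold. The part of depth and mitochondrial content, which differ between the groups as given above, was not tested for these lists.

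Gene lists of state and of cell division were likewise near the background. Of 7 genes of MHC class II and co-stimulation 0 passed 1.5-fold, and their median was 0.08, against -0.15 with Fabp7 read from the thinned UMIs, so the sign depended on how the cells were chosen. H2-Aa gave 1605 CPM in Fabp7 Kupffer cells and 1518 CPM in the other Kupffer cells. Of 12 complement genes 0 were higher and 1 was lower, and C1qb, a chain of the first complement component, gave 3052 CPM in Fabp7 Kupffer cells and 2498 CPM in the other Kupffer cells. Iron and haem genes had 0 of 13 past 1.5-fold in either direction, with a median of -0.13. Genes of G1/S (4 measured) and G2/M (2 measured) were mostly below the level at which genes were compared, with 0 past 1.5-fold. The GDNF family had 1 measured gene, Gfra2, while Ret, Gdnf, Artn and 5 others of its 11 genes had 0 thinned UMIs in both Kupffer groups.

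A small set of Kupffer cells carried Fn1, which encodes the matrix protein fibronectin. Fn1 was present in 45 Fabp7 Kupffer cells (3.79%) and 41 other Kupffer cells (6.28%) as deposited. With Fabp7 read from the thinned UMIs it gave 65.1 CPM in cells with thinned Fabp7 and 260 CPM in cells without, a ratio of 0.251 (0.181 to 0.341). It was present there in 11 of 783 cells (1.40%) with thinned Fabp7 and 36 of 877 cells (4.10%) without. Single cells held up to 15 thinned Fn1 UMIs with thinned Fabp7 and up to 26 without, so the UMIs were not independent. The level in cells with 0, 1, 2 and 3 or more thinned Fabp7 UMIs was 260, 92.6, 21.6 and 17.9 CPM. Cells with 10 or more Fn1 UMIs numbered 20 in the Fabp7 group and 14 among the other Kupffer cells, and 17 of the 20 and 13 of the 14 held Saa3, an acute-phase serum amyloid gene. These Fn1 cells were deep, with medians of 13561.5 UMIs in the Fabp7 group and 13461 UMIs among the other Kupffer cells.

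Mmp12, a macrophage elastase that the rule limits in both groups, gave 131 CPM in Fabp7 Kupffer cells and 29.1 CPM in the other Kupffer cells. With Fabp7 read from the thinned UMIs Mmp12 gave 134 CPM in cells with thinned Fabp7 and 76.4 CPM in cells without. That ratio was 1.76 (1.28 to 2.42). Single cells held up to 10 thinned Mmp12 UMIs in each set, so the UMIs were not independent. The genes that the rule limits together with Mmp12 did not all follow it. Their ratios in the same reading were 0.448 (0.209 to 0.901) for Gpnmb, 0.224 (0.0239 to 1.05) for H2-M2 and 1.44 (0.477 to 4.55) for Itgax, each from few UMIs. Mmp12 was present in 90 Fabp7 Kupffer cells (7.59%) and 26 other Kupffer cells (3.98%) as deposited. It reached 10 or more UMIs in 20 Fabp7 Kupffer cells and 1 other Kupffer cell. Single cells of the comparison held most UMIs of Clu, which encodes the secreted chaperone clusterin, and of Spp1, which encodes osteopontin. As deposited, 1 of the other Kupffer cells held 761 of their 824 Clu UMIs, and 1 held 803 of their 898 Spp1 UMIs. The thinned Clu ratio was 0.334 with that cell and 0.701 (0.420 to 1.18) without it, so Clu then no longer passed 1.5-fold. The thinned Spp1 ratio was 0.417 with that cell and 0.607 (0.403 to 0.916) without it.

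Langerin (Cd207), which is found on part of the Kupffer cells, overlapped with Fabp7 widely. Of the Fabp7 Kupffer cells 563 (47.5%, 44.6 to 50.4) held a Cd207 UMI, against 232 of 653 other Kupffer cells (35.5%, 31.9 to 39.3). After thinning the shares were 23.0% (20.7 to 25.5) in Fabp7 Kupffer cells and 19.4% (16.5 to 22.7) in the other Kupffer cells, with overlapping intervals. Of all 795 Kupffer cells with Cd207, 70.8% were in the Fabp7 group, against 64.5% of all Kupffer cells. Along 0, 1, 2 and 3 or more thinned Fabp7 UMIs the thinned Cd207 share was 20.8%, 21.6%, 21.1% and 26.8%.

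The group was also set against narrower sets of Kupffer cells. Fabp7 itself gave 1065 CPM in the group and 860.3 CPM in the 179 Kupffer cells with hepatocyte RNA, a ratio of 1.24 (1.05 to 1.47) that the choice of cells bears on. These 179 cells, 147 of them with Fabp7, had a median of 3816 UMIs. Against them the ratio was 1.09 (0.751 to 1.63) for Cxcl14, 1.10 (0.947 to 1.29) for Ifitm3 and 1.09 (0.880 to 1.37) for Lgals3. Against the 134 Kupffer cells with Cd207 and without Fabp7, the Fabp7 group had a Cxcl14 ratio of 1.63 (0.983 to 2.90). Against the 268 Kupffer cells with Marco and without Cd207 or Fabp7, it had a Cxcl14 ratio of 2.17 (1.43 to 3.46) and an Ifi27l2a ratio of 1.25 (1.02 to 1.56). The Gfra2 ratio had an interval that included 1 against each of these sets, the 179 cells included. These smaller sets were shaped by depth too, since cells without a given gene are shallower.

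The macroscopic library held 3 Kupffer cells by the same rule, and 1 of them met the rule for the Fabp7 group. That cell had 44 Fabp7 UMIs of 41515, or 1059.9 CPM (770.1 to 1423). Another of the 3 held 35 Fabp7 UMIs but had 4 UMIs of the 6 hepatocyte genes and was outside the group. No barcode sequence of the 1186 early cells recurred in the macroscopic library. With 3 Kupffer cells there, the stages were not compared for this group.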

How the data were processed

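Single-cell RNA of YFP-sorted mouse liver cells was deposited as 1 library of early lesions and 1 of macroscopic lesions. The authors deposited unnormalized UMI counts for each gene in each barcode, with software version 3.0.2 per the file headers. Cell Ranger 3.0.2, Seurat 2.3.0 and mm10 are listed, per the submitters' processing notes. Which gene models were counted is not stated. Gene positions came from GENCODE M21 (GRCm38), matched by Ensembl identifier for 30934 of 31053 genes.

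Cells were thinned by drawing 1000 UMIs without replacement (numpy 2.4.6, seed 1), UMIs were summed per group, and CPM ratios were given with exact conditional binomial 95% intervals, levels with Poisson and shares with Clopper-Pearson 95% intervals. PCR duplicates are removed by UMIs, and the intervals cover counting error only. Where a count was 0 the limit is 3 counts. The ratio step was tested on simulated counts. Classes outside Kupffer cells needed at least 3 UMIs of their markers, more than of any other class. They also needed fewer than 3 UMIs of Clec4f, Vsig4, Cd5l and Marco together. Doublets were called with Scrublet in Scanpy and kept. Strand use in counting is not stated, so overlapping genes cannot be told apart.

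Named genes were the 5 proposed markers, the detected fatty acid binding proteins, the 12 and 12 genes with the most extreme interval bounds, the genes of the rule, and up to 4 of each of 34 lists. Of the genes so named, 1 is not reported here. Other genes, among them Icam1 and Saa3, were named after their values were seen. The group, its members and the gene lists were chosen with earlier results of these data known. The reading of Fabp7 from thinned UMIs, the reading of undrawn UMIs the Fn1 cells, and Clu and Spp1 without 1 cell were added after seeing the data. Alternatives covered thinning, depth, seed, thresholds, mitochondrial limit, scaling, doublets and the comparison cells.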

Additional observations from a re-analysis of the deposited data

Results flagged for a closer look

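Fabp7 appeared in data outside the early Kupffer comparison. The macroscopic library held 82 Fabp7 UMIs of 7271368, of which 79 came from 2 Kupffer cells. The cell that met the rule for the Fabp7 group held 44, and the other held 35 together with 4 UMIs of the 6 hepatocyte genes, which kept it out of the group. In the early library the 62 barcodes removed for high Alb held 8 Fabp7 UMIs, or 7.53 CPM (3.25 to 14.8), in 4 barcodes. Of those 8 UMIs, 5 came from 1 barcode that also held at least 3 UMIs of the Kupffer genes. The remaining level was not compared with a control, since none of the libraries lacks Kupffer cells.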

How the results depend on the processing

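No paired analysis was possible because each stage has 1 library and the compared cells come from the same library. The counts of genes past 1.5-fold (72 higher, 143 lower) depended on most choices. They were 9 and 67 without thinning, 16 and 68 by mean CPM per cell, 165 and 246 without Cd207 cells, and 152 and 262 at a mitochondrial limit of 10%. Within cells of 1000 to 2000, 2000 to 4000 and 4000 to 8000 UMIs they were 250 and 361, 320 and 396, and 511 and 394, and 163 were higher above 8000 UMIs. They were 361 and 571 at 20 CPM, 1 and 3 at 200 CPM, 2505 and 2925 with no filter, and 6 and 35 at 2-fold. Lower genes numbered 92 with Fabp7 from the thinned UMIs and 86 with both sides also under the hepatocyte limit, while 133 were higher and 199 lower against cells without Fabp7 or hepatocyte RNA. Fewer cells or lower floors leave fewer UMIs per gene, and the other causes were not tested.

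The share of Kupffer cells in the group was 43.9% at 2 or more Fabp7 UMIs, 42.6% from thinned UMIs, 68.3% at the mitochondrial limit of 10% and 72.7% from 2000 UMIs. Thinned class shares with Fabp7 were 47.5% in Kupffer cells, 2.86% in all cells not Kupffer, 2.33% in Gpnmb macrophages, 1.19% in all named other classes and 0% in neutrophils, monocytes and cholangiocytes.

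Log2 ratios of single genes changed sign in 24 instances. Thinned to 2000 UMIs, Cd55 was 1.01 and Ndufs1 -0.071. Without thinning Hspa1b was -0.013, Cd55 0.14 and Ndufs1 -0.19. In the second draw Hadha was -0.018, Cebpd -0.020 and Ndufs1 -0.0068. With thinned Fabp7 Hspa1b was -0.17 and Xlr -0.075. Against cells without Fabp7 or hepatocyte RNA Rgn was 0.38. Within 1000 to 2000 UMIs Rgn was 0.14 and Fos -0.31, within 2000 to 4000 Cd55 0.46 and Ifitm6 -0.12, and above 8000 Capg -0.16, Cela1 -0.76 and Cxcl14 -0.65. With thinned Fabp7 and both sides under the hepatocyte limit Hspa1b was -0.41, Aldh1l1 0.21, Rgn 0.50, Oat 0.095, Xlr -0.048 and Acaa2 0.031.

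These values rest on 1 pooled library, so differences between mice cannot be told apart from differences between cells. Thinning to 1000 UMIs leaves few UMIs for genes near 50 CPM, and most higher calls there did not recur in a second draw (24 of 72 did).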
